A study of Mus musculus with 8 samples.

Results

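The macrophage and microglia genes described here are 37 genes, picked by gene symbol out of the 23420 genes of a table of mouse cranial mesenchyme. They are genes known from macrophages, from microglia (the macrophages of the brain) or from leukocytes in general. Symbols were matched as the table spells them, so that Emr1 stands for Adgre1 (the F4/80 antigen) and Sfpi1 for Spi1 (the transcription factor PU.1). The study compared the mesenchyme at 2 sites of the head of wild type C57BL/6 embryos at E12.5, the early migrating mesenchyme (EMM) and the supraorbital mesenchyme (SOM). Each group had 4 libraries, and each library came from the pooled tissue of 4 to 5 embryos, after the brain and the surface ectoderm had been removed. No allele or agent distinguished the groups, which the labels tell apart by the site of dissection.

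Tissue macrophages of the embryo arise from yolk sac and fetal liver precursors and settle in the mesenchyme, around vessels and in the brain before birth. Their survival depends on CSF1R, a receptor tyrosine kinase that binds CSF1 and IL-34, and their identity on PU.1. They carry the complement protein C1q, Fc receptors that signal through the ITAM adaptors FcRγ and DAP12, scavenger receptors such as CD206, and lysosomal proteases with which they digest dead cells.

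The libraries held 12.7 to 22.4 M reads in EMM and 16.8 to 33.7 M reads in SOM. Values are normalized counts, which are read counts divided by a size factor for each library. A gene was tested with limma on log2(normalized count + 1) where its normalized count was at least 10 in at least 4 libraries, and it was called at a Benjamini-Hochberg adjusted p below 0.05. That left 14249 genes, among them all 37 members. The head mesenchyme markers summed to 878000 to 1020000 in EMM libraries and to 331000 to 387000 in SOM libraries, so that mesenchymal RNA was abundant in both. Most of that sum in both groups came from Col1a1, Col1a2 and Col3a1, named for this reason only. In that order, their means were 366000, 293000 and 222000 in EMM and 108000, 92900 and 97900 in SOM. Of the 13 such markers tested, 9 were called higher in EMM and 4 higher in SOM, beside 36.1% and 36% of all genes tested. Brain and neuron markers summed to 8590 to 9880 in EMM libraries, against 6210 to 6440 in SOM libraries. That direction rests on Nes, which had 7200 to 8740 in EMM libraries and 2400 to 2610 in SOM libraries, and without Nes the sum was 1140 to 1790 in EMM libraries and 3590 to 4010 in SOM libraries.

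Macrophage transcripts were more abundant in EMM. Of the 37 members, 35 were called higher in EMM, against 36.1% of all genes tested. Cd83 alone was called higher in SOM, a call made for 36% of all genes. Cd163 was not called. At least 2-fold differences with a call numbered 31 in favour of EMM, where the background was 11%, and 1 in favour of SOM, where it was 5.19%. In 34 members the lowest EMM library lay above the highest SOM library, as in 33.2% of all genes, and in 1 member the lowest SOM library lay above the highest EMM library, as in 32.9%. The median log2 difference of the members was 1.81, beside -0.01 over all genes tested. In the authors' deposited table, 34 members had an adjusted p below 0.05 in favour of EMM and 1 in favour of SOM. Of its 23420 genes, 10210 had such an adjusted p in either direction, and the shares by direction are not given here.

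Members took 0.142 to 0.169% of the reads in EMM libraries and 0.0484 to 0.0537% in SOM libraries. Their summed normalized counts were 38700, 35200, 32700 and 36000 in EMM replicates 1 to 4, against 11300, 10500, 11000 and 10400 in SOM replicates 1 to 4. The groups did not overlap. In bulk tissue, fewer cells of a type and less RNA per cell cannot be told apart. The normalized count was at least 10 in all 8 libraries for 34 members. Sall1, Siglech and Cd48 met the minimum through EMM, since none, 1 and 2 of their SOM libraries reached it, so a higher EMM level was built into their being tested.

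**Figure D1:**
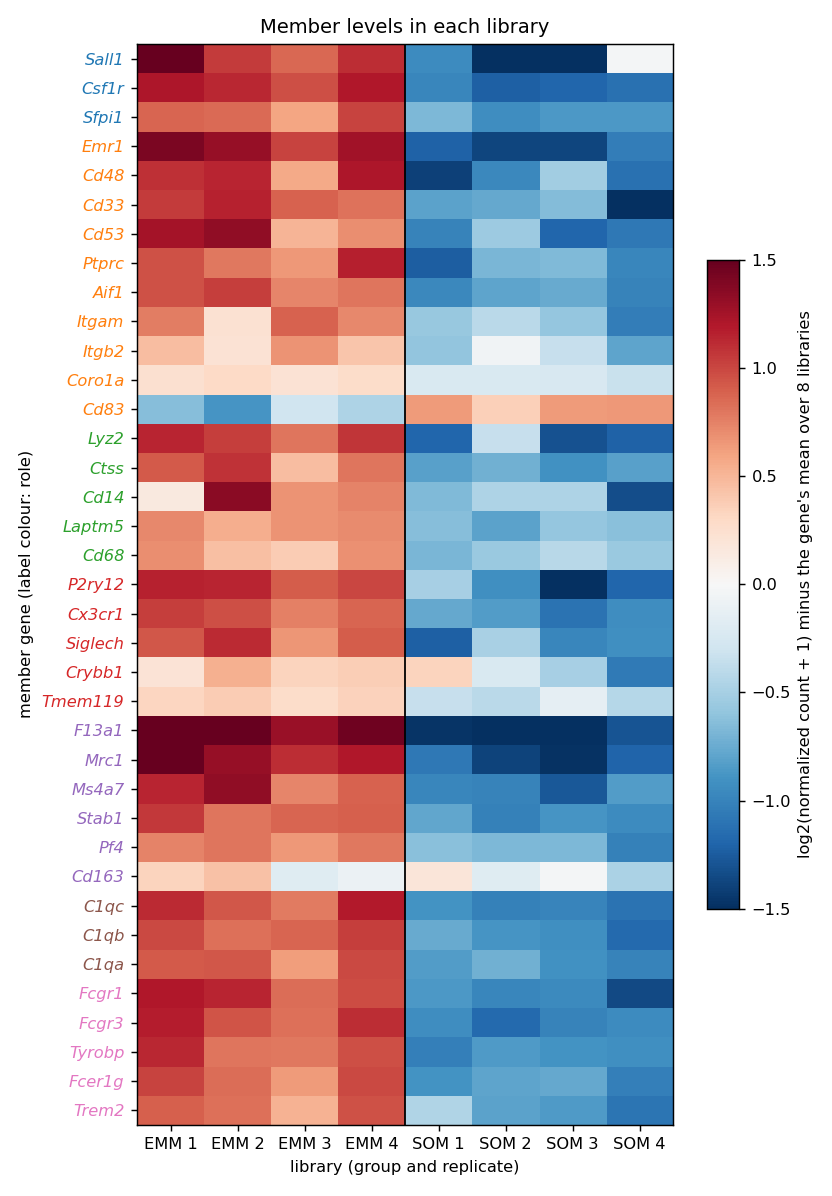
Level of each member (rows, label colour by role) in each library (columns, EMM replicates 1 to 4 and then SOM replicates 1 to 4), as log2(normalized count + 1) minus the gene's mean over the 8 libraries. Nearly all rows are red in EMM and blue in SOM, apart from Cd83, which is the other way round, and Cd163, which is mixed, and EMM replicate 3 is the palest EMM column.

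Csf1r, which encodes the CSF1 receptor, had 3231, 3035, 2719 and 3190 normalized counts in EMM replicates 1 to 4, against 708, 595, 610 and 640 in SOM replicates 1 to 4. The EMM values were all above the SOM values, and the log2 difference was 2.25 ± 0.07 (SE, n = 4 each, limma adjusted p = 9.61e-14). Sfpi1, at chr2:91082390-91115756 (plus strand, GRCm38), encodes PU.1 and had 326, 322, 268 and 361 in EMM libraries, against 111, 92.4, 97.7 and 97.5 in SOM libraries. Its difference was smaller than that of Csf1r, at 1.66 ± 0.11 (limma adjusted p = 1.44e-09). Sall1, a zinc finger factor that maintains microglial identity and is also made by other embryonic tissues, had 33.7, 18.1, 15.7 and 18.9 in EMM libraries and 3.78, 1.40, 1.28 and 8.01 in SOM libraries. It rested on 72 reads in EMM and 19 in SOM, and its log2 difference of 2.47 had the widest error of the members, an SE of 0.43 (limma adjusted p = 8.67e-05). Exonic bases of Csf1r overlap 873 bases of Hmgxb3 on the other strand, and no source used here says whether reads were counted by strand.

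PU.1 binds DNA at the core GAGGAAGT, and the promoters of members were searched for it. RefSeq windows from 250 bases before to 50 bases after a transcription start (build GRCm38.p6) were held for 28 members, in 35 windows. The core was present on either strand in a window of 5 of those 28 members (17.9%), namely C1qc, Cd53, Ctss, F13a1 and Pf4, and in 3.69% of the 27025 genes with a window. Over all 32851 windows the share was 3.2%. The windows of these 5 genes, all higher in EMM, are shown 5′ to 3′ on the strand of the gene, with the core or its reverse complement in capitals.
C1qc: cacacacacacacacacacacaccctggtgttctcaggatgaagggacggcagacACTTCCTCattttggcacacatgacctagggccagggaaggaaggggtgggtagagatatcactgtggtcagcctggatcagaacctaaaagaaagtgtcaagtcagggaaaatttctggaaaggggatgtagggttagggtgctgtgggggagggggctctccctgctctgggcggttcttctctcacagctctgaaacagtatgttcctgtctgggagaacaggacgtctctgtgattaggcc
Cd53: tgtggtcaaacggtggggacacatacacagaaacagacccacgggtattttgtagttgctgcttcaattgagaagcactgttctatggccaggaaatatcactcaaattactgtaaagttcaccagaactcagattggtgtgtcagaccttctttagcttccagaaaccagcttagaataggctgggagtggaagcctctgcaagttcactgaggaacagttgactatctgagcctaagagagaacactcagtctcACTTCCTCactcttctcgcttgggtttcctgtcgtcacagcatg
Ctss: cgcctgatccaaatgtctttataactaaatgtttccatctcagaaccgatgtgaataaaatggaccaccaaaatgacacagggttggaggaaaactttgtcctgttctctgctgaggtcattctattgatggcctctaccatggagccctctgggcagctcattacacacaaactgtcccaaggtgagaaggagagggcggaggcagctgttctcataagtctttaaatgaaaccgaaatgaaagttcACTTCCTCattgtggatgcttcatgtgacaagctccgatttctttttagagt
F13a1: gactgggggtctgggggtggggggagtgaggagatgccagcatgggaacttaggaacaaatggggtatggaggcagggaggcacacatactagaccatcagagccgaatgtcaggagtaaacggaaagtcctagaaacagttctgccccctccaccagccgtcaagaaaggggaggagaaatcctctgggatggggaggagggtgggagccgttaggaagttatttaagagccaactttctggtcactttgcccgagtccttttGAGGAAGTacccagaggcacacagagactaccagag
Pf4: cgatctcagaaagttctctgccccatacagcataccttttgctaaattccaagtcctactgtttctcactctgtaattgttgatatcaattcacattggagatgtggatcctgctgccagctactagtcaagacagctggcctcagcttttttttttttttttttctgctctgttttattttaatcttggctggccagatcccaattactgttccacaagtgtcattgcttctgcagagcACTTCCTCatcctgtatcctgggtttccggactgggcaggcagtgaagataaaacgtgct
These windows lie at chr4:136892865-136893164 (minus strand) for C1qc, chr3:106790100-106790399 (minus) for Cd53, chr3:95526536-95526835 (plus) for Ctss, chr13:37049164-37049463 (minus) for F13a1 and chr5:90772185-90772484 (plus) for Pf4. The first base of the match is at position -195 from the start in C1qc, -10 in Pf4 and -2 in Ctss, and at 7 in Cd53 and 15 in F13a1. A match describes the letters of the window and does not show binding. The 5 genes had log2 differences of 2.01 (C1qc), 1.90 (Cd53), 1.63 (Ctss), 2.94 (F13a1) and 1.49 (Pf4), on both sides of the members' median.

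The 3 chains of C1q, the recognition protein of the classical complement pathway, lie side by side on chromosome 4, between 136880129 and 136898803 (GRCm38). C1qa had 749, 756, 612 and 786 normalized counts in EMM libraries and 220, 240, 210 and 196 in SOM libraries. C1qb had 1282, 1146, 1190 and 1332 in EMM libraries and 383, 351, 341 and 289 in SOM libraries. C1qc had 1379, 1216, 1088 and 1447 in EMM libraries and 340, 314, 319 and 293 in SOM libraries. All 3 were called higher in EMM with no overlap between the groups. Their log2 differences were 1.74 ± 0.09 for C1qa, 1.86 ± 0.08 for C1qb and 2.01 ± 0.08 for C1qc (SE, limma adjusted p from 5.18e-12 to 7.51e-11).

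All 5 ITAM adaptors and receptors were called higher in EMM, with a median log2 difference of 1.85 and a range from 1.60 to 2.07. Fcer1g encodes FcRγ, the adaptor of activating Fc receptors, and averaged 718 ± 83.1 normalized counts in EMM and 214 ± 16.8 in SOM (SD, n = 4 each). Tyrobp encodes DAP12, the adaptor of TREM2, and averaged 539 ± 61.3 in EMM and 149 ± 7.40 in SOM. Fcgr1 and Fcgr3 encode Fc receptors for IgG. Fcgr1 averaged 230 ± 25.8 in EMM and 54 ± 7.75 in SOM, and Fcgr3 averaged 554 ± 59.8 in EMM and 135 ± 9.71 in SOM. Trem2, a receptor for lipids and cell debris, had the smallest difference of the 5, with 167 ± 21.1 in EMM and 54.9 ± 10.5 in SOM.

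The scavenger and tissue-resident macrophage genes held the largest difference of all members. F13a1, the A subunit of coagulation factor XIII, a transglutaminase made by tissue macrophages, had 4237, 3821, 3321 and 3731 normalized counts in EMM libraries, against 490, 477, 444 and 551 in SOM libraries. Its log2 difference was 2.94 ± 0.08 (SE, n = 4 each, limma adjusted p = 1.84e-13). Mrc1, the mannose receptor CD206, had 4695, 3978, 3467 and 3705 in EMM libraries, against 763, 617, 575 and 701 in SOM libraries, and its log2 difference was 2.57 ± 0.11 (limma adjusted p = 6.63e-09). In both genes every EMM library was far above every SOM library. F13a1 (chr13:36867178-37050244, minus strand) shares 74 exonic bases with Gm30489 on the other strand, and Mrc1 (chr2:14229392-14332057, plus strand) shares none with another gene.

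Stab1, which encodes the scavenger receptor stabilin-1 of macrophages and of some endothelia, had 8980, 7506, 7857 and 8004 normalized counts in EMM libraries, against 2511, 2124, 2323 and 2235 in SOM libraries. Its difference was 1.81 ± 0.06 (limma adjusted p = 4.45e-13). Of 16 endothelial markers, 10 were called higher in EMM and 4 higher in SOM, beside 36.1% and 36% of all genes tested. Their median was 0.32, and Emcn was at 1.49 and Sox18 at -0.82. Their part in the Stab1 level was not tested. Ms4a7, a membrane protein of tissue macrophages, averaged 115 ± 21.3 in EMM and 27.0 ± 3.47 in SOM (SD, n = 4 each).

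Pf4, a chemokine of platelets and also of embryonic macrophages, had 821, 860, 771 and 850 normalized counts in EMM libraries, against 319, 308, 306 and 243 in SOM libraries. Its log2 difference was 1.49 ± 0.08 (limma adjusted p = 2.15e-10). Of 14 megakaryocyte and platelet markers tested, 4 were called higher in EMM, beside 36.1% of all genes tested, and 10 were not called. Their median was 0.38, which was 0.09 without EMM replicate 3 and 0.60 without EMM replicate 1. Their sum was 6820 to 9480 in EMM libraries and 1680 to 2160 in SOM libraries. Most of the EMM sum was Vwf, also an endothelial gene, so the gap between the sums rests largely on it. Vwf had a mean of 5988 ± 816 in EMM and 615 ± 306 in SOM. With EMM replicates 2 and 3 and SOM replicate 4 left out, 2 of these markers were called higher in EMM and 3 higher in SOM, with a median of -0.19.

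Cd163, the receptor for haemoglobin bound to haptoglobin, did not follow the other scavenger receptors. It had 18.4, 19.9, 12.54 and 13.5 in EMM libraries and 16.4, 12.6, 14 and 10.02 in SOM libraries, and the groups overlapped. Its log2 difference was 0.25 ± 0.27 (SE, limma adjusted p = 0.406), at the lowest level per kb of all members in EMM.

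**Figure D2:**
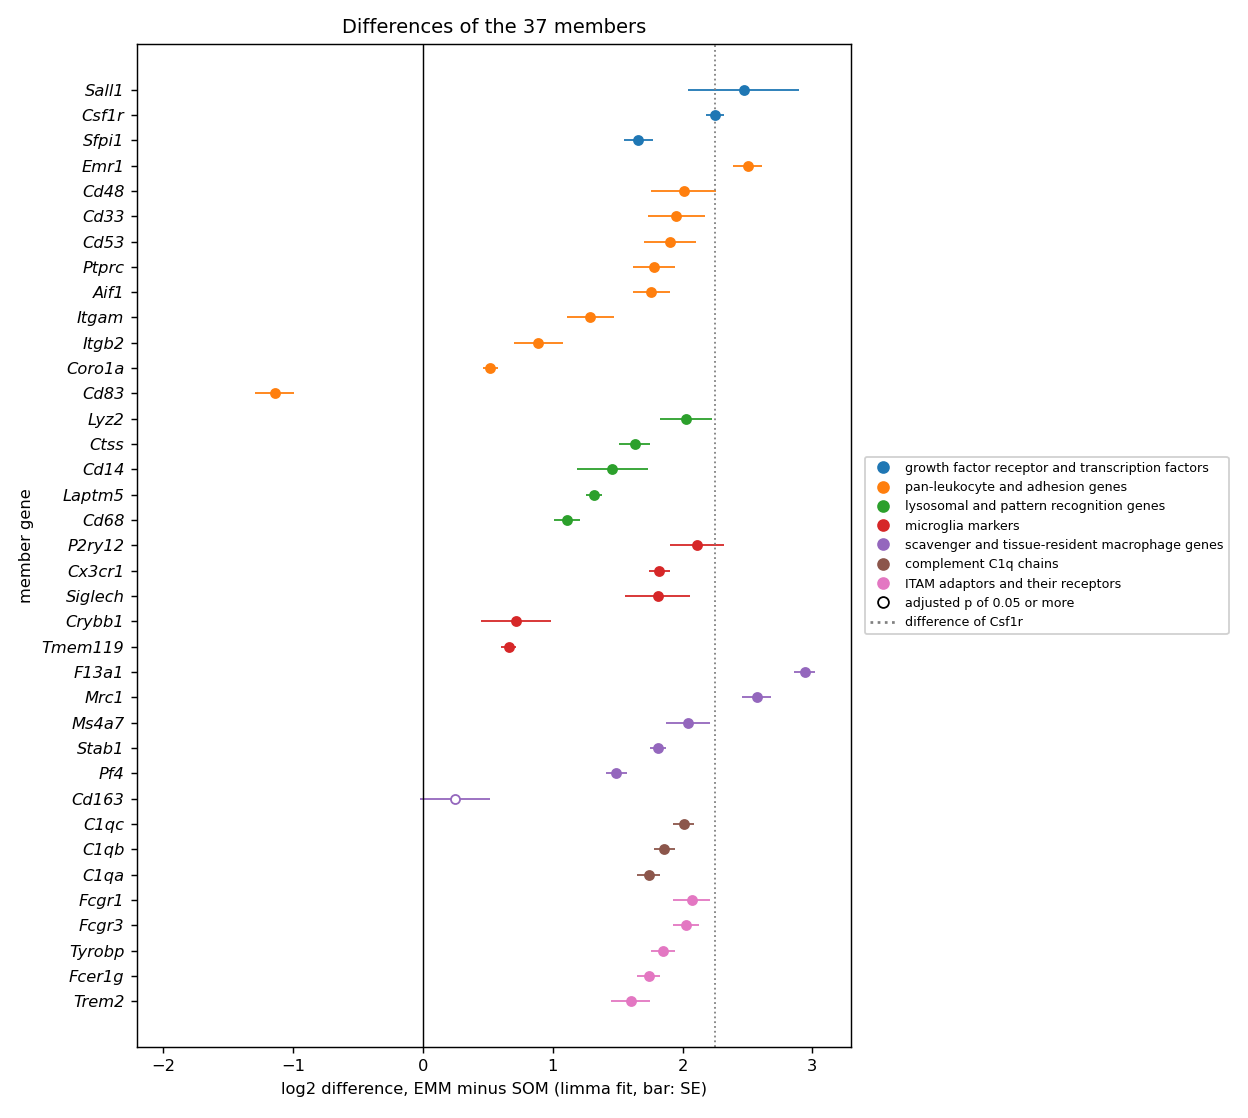
Log2 difference, EMM minus SOM, of each member in the limma fit (horizontal axis, bar for the SE), with members grouped and coloured by role and the open point for the member that was not called. F13a1 lies farthest to the right at 2.94 and Cd83 alone lies left of 0, at -1.14, and the dotted line marks Csf1r at 2.25.

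The microglia markers were present in mesenchyme from which the brain had been removed, and all 5 were called higher in EMM. Cx3cr1, the fractalkine receptor, had 1168, 1117, 961 and 1046 normalized counts in EMM libraries, against 335, 317, 264 and 299 in SOM libraries (log2 difference 1.82 ± 0.08, limma adjusted p = 1.43e-11). P2ry12, an ADP receptor by which microglia sense injury, had 109, 108, 92.0 and 98.3 in EMM libraries, against 34.0, 25.2, 15.3 and 20.7 in SOM libraries (2.11 ± 0.21, limma adjusted p = 1.68e-07). Siglech, a sialic acid receptor, averaged 31.2 ± 4.10 in EMM and 8.29 ± 2.07 in SOM (SD, n = 4 each). The groups did not overlap in any of these.

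Tmem119, a membrane protein known from microglia and also from bone-forming mesenchyme, had 4035, 4208, 3915 and 4121 normalized counts in EMM libraries, against 2547, 2457, 2942 and 2401 in SOM libraries. The difference of 0.66 ± 0.06 was called (limma adjusted p = 5.58e-08) and was the smallest in this group. Crybb1, a lens crystallin that embryonic microglia also make, had 28.6, 36.2, 31.4 and 32.3 in EMM libraries and 31.5, 21.0, 17.2 and 11.4 in SOM libraries. It was the only called member whose groups overlapped, since SOM replicate 1 lay within the EMM range. Its difference of 0.72 ± 0.27 had a limma adjusted p of 0.0231, and in the authors' deposited table its adjusted p was 0.0611. Without EMM replicate 2, SOM replicate 3 or SOM replicate 4 the limma adjusted p of Crybb1 was 0.0537, 0.0548 and 0.0852, and it was 0.0637 with DESeq2.

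Lysosomal and pattern recognition genes were all 5 called higher in EMM, with a median log2 difference of 1.46. Ctss, the lysosomal protease cathepsin S, averaged 334 ± 58.4 normalized counts in EMM and 106 ± 5.61 in SOM (SD, n = 4 each). Laptm5 encodes a lysosomal membrane protein of blood cells and averaged 1323 ± 73.8 in EMM and 528 ± 33.1 in SOM. Cd68, a heavily glycosylated lysosomal protein, had 325, 275, 261 and 323 in EMM libraries, against 125, 136, 151 and 136 in SOM libraries. Its log2 difference was 1.11 ± 0.10, the smallest of the group. Cd14, the co-receptor for lipopolysaccharide, was low and spread, with 31.7, 74.1, 46 and 48.5 in EMM libraries and 17.6, 20.3, 20.4 and 10.7 in SOM libraries, which still did not overlap (1.46 ± 0.27, limma adjusted p = 0.000137).

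Lyz2, the lysozyme of macrophages and granulocytes, had 604, 564, 479 and 579 normalized counts in EMM libraries, against 120, 215, 110 and 118 in SOM libraries. SOM replicate 2 was higher than the other SOM libraries but well below the EMM libraries, and the difference was 2.03 ± 0.20 (SE, limma adjusted p = 8.43e-06). Some genes of granulocytes were high in the same library and others were not. The following 4, which encode neutrophil granule or cytosol proteins, were picked after their values were seen because they were high there. S100a8 had 214 in SOM replicate 2 and 28.7 to 50.4 in the other SOM libraries. S100a9 had 334 there and 60.1 to 67.7 in the others. Ngp and Ltf had 203 and 166 there, and in the other SOM libraries Ngp had at most 30.2 and Ltf at most 23.6. Camp and Lcn2, picked later, were also highest there, with 55.3 for Camp and 49.7 for Lcn2. In the other SOM libraries Camp had at most 14.7 and Lcn2 at most 16.6. Some markers of the list did not follow. Mmp9 had 111 in SOM replicate 2, the lowest SOM value, and 140 to 226 in the other SOM libraries. Cxcr2 had 131 there and 112 to 151 in the others, Prtn3 had 60.2 there and 37.7 to 70.5 in the others, and Mpo, also picked later, had 27.3 there and 21.7 to 51.6 in the others. The near-identical paralog Lyz1, picked after its values were seen, had 54.6 in SOM replicate 2 and 23.0 to 27.7 in the others, and how reads were split between the lysozymes is uncertain. The monocyte and granulocyte markers as a list had 4 of 10 called higher in SOM, close to the 36% of all genes tested. None was called higher in EMM, against 36.1% of all genes tested, and the median was -1.38. Their sum was 283 to 368 in EMM libraries and 515 to 1390 in SOM libraries. Without SOM replicate 2 the median was -0.79, with 5 called. With no filter on low values it was -0.68 over 17 markers, with 6 called. Without EMM replicate 3, or without EMM replicate 4, 2 were called. The part of granulocytes in the Lyz2 level was not tested.

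**Figure D3:**
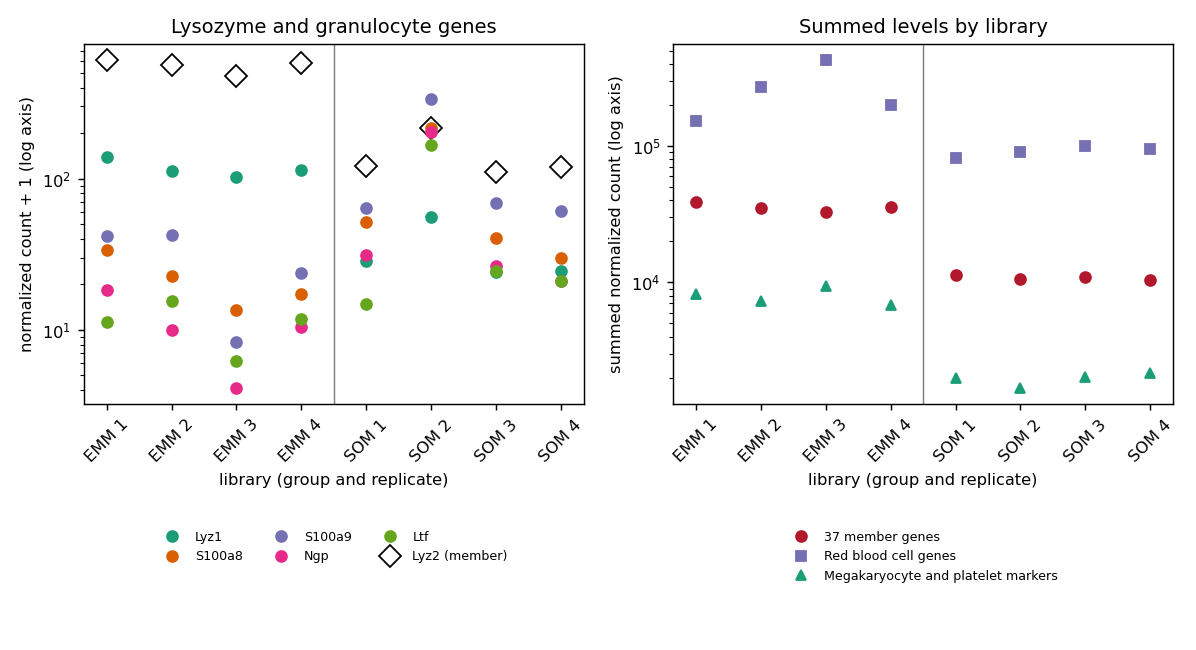
Left, Lyz2, its paralog Lyz1 and the granulocyte genes S100a8, S100a9, Ngp and Ltf in each library, as normalized count + 1 on a log axis. These granulocyte genes were picked because they were high in SOM replicate 2. Of the other markers of their list, not shown, some were highest there and some were not. Right, summed normalized counts of the members, the red blood cell genes and the megakaryocyte and platelet markers on a log axis. Most of the megakaryocyte and platelet sum in EMM libraries is Vwf, also an endothelial gene. SOM replicate 2 holds the highest values of the picked granulocyte genes, among them S100a9 at 334. EMM replicate 3 holds the highest red blood cell sum, at 427000, with the lowest EMM sum of the members, at 32700.

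Of the 10 pan-leukocyte and adhesion genes, 9 were called higher in EMM and 1 higher in SOM, over the widest range of any role. Emr1, the F4/80 antigen of mature macrophages, had 712, 662, 537 and 638 normalized counts in EMM libraries, against 115, 102, 102 and 130 in SOM libraries (log2 difference 2.50 ± 0.11, limma adjusted p = 6.03e-12). Ptprc, the leukocyte phosphatase CD45, averaged 158 ± 24.6 in EMM and 45.5 ± 8.41 in SOM (SD, n = 4 each). Cd53, a tetraspanin of leukocytes, averaged 168 ± 45.9 in EMM and 43.7 ± 9.38 in SOM. Aif1, the actin-binding protein IBA1, averaged 144 ± 13.7 in EMM and 41.6 ± 3.61 in SOM. These 4 differed by 1.76 to 2.50 on the log2 scale. Cd33, a sialic acid receptor, averaged 89.6 ± 9.89 in EMM and 23.1 ± 6.63 in SOM, and Cd48, a ligand of natural killer cell receptors, averaged 44.9 ± 8.47 in EMM and 10.5 ± 3.03 in SOM.

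Integrin chains and coronin differed less. Itgam, which encodes CD11b, averaged 93.6 ± 17.4 normalized counts in EMM and 37.5 ± 6.76 in SOM (1.29 ± 0.18), and it shares 3450 exonic bases with the annotated gene Gm49368 on the same strand, so its reads may have been split. Itgb2, the partner chain CD18, averaged 66.1 ± 8.76 in EMM and 35.7 ± 8.18 in SOM (0.89 ± 0.19, limma adjusted p = 0.000488). Coro1a, an actin regulator of leukocytes, had 671, 696, 658 and 687 in EMM libraries, against 482, 484, 479 and 449 in SOM libraries. Its difference of 0.52 ± 0.06 was the smallest called difference among the members (limma adjusted p = 1.24e-06), with libraries that did not overlap.

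Cd83, a surface protein of activated dendritic cells and B cells that other cells also make, ran the other way. It had 58.3, 48.8, 74.2 and 66.0 normalized counts in EMM libraries, against 142, 118, 143 and 144 in SOM libraries. Every SOM library was above every EMM library, and the log2 difference was -1.14 ± 0.15 (SE, n = 4 each, limma adjusted p = 3.21e-06).

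Levels can be set between genes only per kb of exonic length, here from GENCODE M21. On that scale Tmem119 came first in both groups, with 1760 ± 54.1 normalized counts per kb in EMM and 1120 ± 106 in SOM (SD, n = 4 each), apart from the next gene in each. Pf4 came next, with 1150 ± 55.8 per kb in EMM and 408 ± 47.7 in SOM, and then C1qb, with 1140 ± 77.6 per kb in EMM and 313 ± 35.9 in SOM. Pf4 and C1qb overlapped in both groups. Fcer1g, Tyrobp, Stab1 and C1qa followed in both groups, in slightly different order. Between neighbours in the order, the libraries overlapped in 29 of 36 pairs in EMM and in 25 of 36 in SOM.

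Some members changed place between the groups. F13a1 was rank 10 in EMM and rank 17 in SOM, with 560 ± 55.8 per kb in EMM and 72.7 ± 6.66 in SOM. Mrc1 was rank 9 in EMM and rank 14 in SOM. Coro1a was rank 16 in EMM and rank 8 in SOM, and Cd83 was rank 30 in EMM and rank 19 in SOM. Csf1r was rank 11 in both, with 527 ± 40.2 per kb in EMM and 111 ± 8.69 in SOM. Sall1 and Cd163 were the lowest pair in both groups.

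Because nearly all members were higher in EMM, each was also set against Csf1r within the same library, and the log2 difference of that ratio was tested with limma. Relative to Csf1r, 2 of the 36 other members were called higher in EMM, against 1.31% of all genes, and 24 were called lower, against 96.1% of all genes. The low values of the ratio are thus the rule over all genes, most of which did not differ as Csf1r did. The median over the 36 members was -0.46. Since all ratios share the noise of Csf1r, the spread was pooled fully across genes, and a fit without such pooling called 3 higher and 22 lower.

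F13a1 and Mrc1 were the 2 members that exceeded Csf1r. The ratio of F13a1 to Csf1r was 1.31, 1.26, 1.22 and 1.17 in EMM libraries, against 0.693, 0.802, 0.728 and 0.860 in SOM libraries, a 1.61-fold difference (limma adjusted p = 5.61e-11, and 0.000139 without pooling). The ratio of Mrc1 was 1.45, 1.31, 1.27 and 1.16 in EMM libraries, against 1.08, 1.04, 0.944 and 1.09 in SOM libraries, a 1.25-fold difference (limma adjusted p = 0.00205, and 0.00812 without pooling). Neither overlapped between the groups. The ratio of Emr1 was 0.209 ± 0.0118 in EMM and 0.177 ± 0.0182 in SOM (SD, n = 4 each) and overlapped, with a limma adjusted p of 0.0593 and one of 0.0253 without pooling.

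The genes lowest relative to Csf1r were Cd83, Cd163, Coro1a, Tmem119 and Crybb1. The ratio of Tmem119 to Csf1r was 1.25, 1.39, 1.44 and 1.29 in EMM libraries, against 3.60, 4.13, 4.82 and 3.75 in SOM libraries. The ratio of Coro1a was 0.208 to 0.242 in EMM libraries and 0.682 to 0.814 in SOM libraries. The ratio of Cd163 was 0.00453 to 0.00688 in EMM libraries and 0.0172 to 0.0246 in SOM libraries. In 21 of the 24 members called lower, the ratios did not overlap between the groups. The share of all genes without such overlap is not given here, and 96.1% of all genes were called lower relative to Csf1r. P2ry12 and Fcgr1 were not called, with ratios of 0.0339 ± 0.00204 for P2ry12 and 0.0758 ± 0.00559 for Fcgr1 in EMM, against 0.0385 ± 0.0101 for P2ry12 and 0.0863 ± 0.0127 for Fcgr1 in SOM. With the mean of the 3 C1q chains in place of Csf1r, 4 members were called higher in EMM, namely F13a1, Mrc1, Emr1 and Csf1r itself, and 10 were called lower. The shares over all genes with this reference are not given here, so these counts cannot be set against a background.

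**Figure D4:**
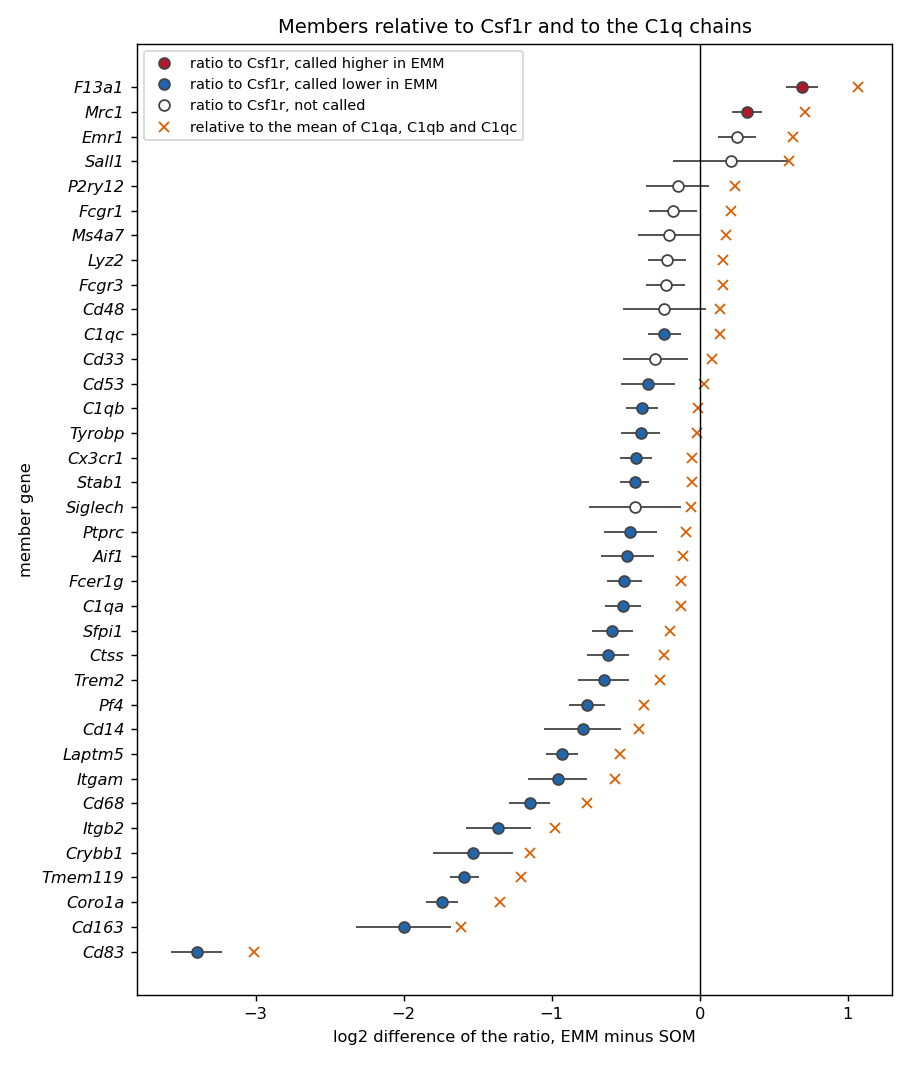
Log2 difference, EMM minus SOM, of the ratio of each member to Csf1r (points, with the SE as a bar and the fill for the call) and of its ratio to the mean of the C1q chains (crosses). F13a1 and Mrc1 lie right of 0 with both references, and Cd83 lies farthest left.

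Lists of other genes of the same pathways were read beside the members. Their counts stand beside 36.1% of all genes tested called higher in EMM and 36% called higher in SOM. Of 22 genes of the CSF1 and cytokine receptor axis, 17 were called higher in EMM and 2 higher in SOM, with a median log2 difference of 1.18. Csf1, the ligand of the CSF1 receptor, averaged 1535 ± 94.2 normalized counts in EMM and 625 ± 31.2 in SOM (SD, n = 4 each), and the complement receptor C3ar1 averaged 315 ± 41.6 in EMM and 82.1 ± 8.62 in SOM. Il34, the other ligand, which was picked after its values were seen, had 47.1 to 60.3 in EMM libraries and 3.83 to 10.5 in SOM libraries. Cxcr4, a chemokine receptor, was higher in SOM, with 87.7 ± 32.4 in EMM and 217 ± 14.5 in SOM. Csf2ra was also called higher in SOM, by a small log2 difference of -0.21 (limma adjusted p = 0.0306). Only 1 gene of the list was called higher in SOM without EMM replicate 2, EMM replicate 4, SOM replicate 1 or SOM replicate 3.

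Myeloid transcription factors were divided, with 11 of 17 called higher in EMM and 4 higher in SOM (median 0.96). Tfec averaged 96.4 ± 8.38 in EMM and 18.1 ± 4.33 in SOM, and Fli1, an ETS factor of blood and endothelial cells, averaged 795 ± 32.1 in EMM and 411 ± 50.9 in SOM. Runx1, a factor of blood stem cells that skeletal progenitors also make, averaged 331 ± 25 in EMM and 1611 ± 275 in SOM. Mef2c and Myb were also called higher in SOM, with log2 differences of -0.90 for Mef2c and -1.87 for Myb.

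Perivascular and border macrophage markers had the highest median of the lists, 2.54, with all 14 tested called higher in EMM. Clec10a, Mgl2, Timd4 and Clec4n, named for this reason only, reached the minimum of 10 in none of the SOM libraries, so a higher EMM level was built into their being tested and counted. Folr2, a folate receptor of resident macrophages, averaged 258 ± 33.7 in EMM and 48.0 ± 7.91 in SOM. Ms4a6b and Ms4a6c differed by 2.52 and 2.13 on the log2 scale. Lyve1, a hyaluronan receptor of macrophages and lymphatic vessels picked after its values were seen, had 1840, 1400, 1220 and 1690 in EMM libraries, against 215, 148, 184 and 219 in SOM libraries. Of 16 further microglia markers, 14 were called higher in EMM and none higher in SOM (median 1.05), with Cst3 at 1.04, Entpd1 at 1.83 and Fcrls at 1.56.

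Intracellular machinery was higher in EMM too. Of 20 genes of ITAM and phosphotyrosine signalling, 18 were called higher in EMM (median 1.39), among them the kinase gene Lyn at 1.30 and the phosphatase gene Ptpn6 at 1.58. Fcgr4 and Clec7a of this list and Timd4 of the apoptotic uptake genes also met the minimum through EMM alone. All 18 genes of the leukocyte cytoskeleton and NADPH oxidase were called higher in EMM (median 1.42), with Nckap1l at 2.07, the oxidase subunit gene Ncf1 at 1.74 and Lcp1 at 0.88. Of 22 lysosome and phagosome genes, 21 were called higher in EMM (median 1.06), with the protease gene Ctsc at 2.29 and Grn, which encodes progranulin, at 1.40. None of these 3 lists held a gene called higher in SOM. For apoptotic cell uptake, 13 of 19 were called higher in EMM and 2 higher in SOM (median 0.76). Gas6 and Pros1, the bridging ligands of the TAM receptors, differed by 2.0 for Gas6 and 1.30 for Pros1, while the receptor gene Tyro3 was at -0.19.

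**Figure D5:**
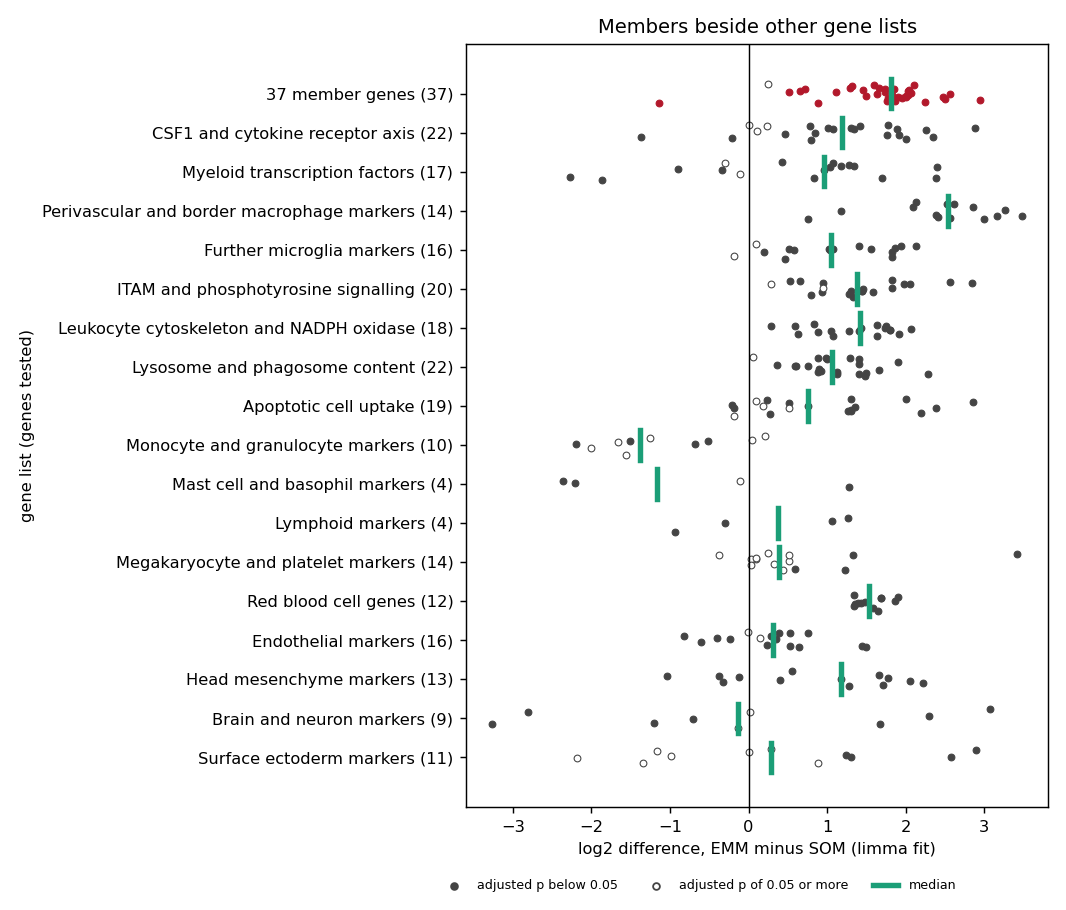
Log2 difference, EMM minus SOM, of each tested gene of the members (top) and of 17 other lists, with filled points for an adjusted p below 0.05 and a bar at the median. The median is 1.81 for the members, 2.54 for perivascular and border macrophage markers and -1.38 for monocyte and granulocyte markers, whose median is -0.79 without SOM replicate 2.

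Markers of other cells moved in several ways beside the members. Over all genes tested, 36.1% were called higher in EMM and 36% higher in SOM, and several counts below lie near these shares. Red blood cell genes were all 12 called higher in EMM (median 1.53), with sums of 153000, 272000, 427000 and 200000 in EMM libraries and 82300 to 100000 in SOM libraries. The 4 adult globin symbols Hba-a1, Hba-a2, Hbb-b1 and Hbb-b2, picked for their values, were listed at 0. Adult globin reads were not absent, since Beta-s (Hbb-bs), picked later, had 3930 to 10600 in EMM libraries and 1900 to 3510 in SOM libraries. EMM replicate 3, highest in red cell genes, was the lowest EMM library in 28 of the 37 members, with a median deviation of -0.18 on the log2 scale from the EMM mean. Without it, 35 members were still called higher in EMM. Mast cell and basophil markers had 1 of 4 called higher in EMM (Kit) and 2 called higher in SOM (Cpa3 and Hdc), and lymphoid markers had 2 of 4 called each way, with the T cell gene Cd3e and the B cell gene Ms4a1, picked for their values, at 0 in all libraries. Head mesenchyme markers had 9 of 13 called higher in EMM and 4 higher in SOM (median 1.18), while brain and neuron markers had 3 of 9 called higher in EMM and 4 higher in SOM (median -0.13, and 0.06 without EMM replicate 3, -0.40 without EMM replicate 2). Elavl3 of that list met the minimum through EMM alone. Surface ectoderm markers had 4 of 11 called higher in EMM and none called higher in SOM (median 0.29, and 0.07 to 0.45 with 1 library left out), but 3 were called higher in SOM without EMM replicate 2. In the lists with 0 genes called in a direction by limma, edgeR and DESeq2 also called 0, and at an unadjusted limma p below 0.05 there was 1 such gene in all, a surface ectoderm marker higher in SOM. The part of these cells in the members' differences was not tested.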

How the data were processed

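RNA of the 8 pooled samples was purified on columns and made into Illumina TruSeq libraries, per the labels' protocols. The tools named in the submitters' processing notes are bcl2fastq, STAR and DESeq2, and the build is mm10. How genes were annotated and reads counted, and whether by strand, is not given in the sources used. A single table was deposited. Its library columns hold a signal per gene that, per the file headers and values, is a normalized count (reads over a size factor of the library). Further columns hold the authors' log2 fold change and its error, with positive values for EMM above SOM, the authors' Wald score, and a deposited p-value and adjusted p-value. Library columns were matched by title, and 0 were left unused.

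Dividing each library column by its smallest value above 0 gave whole reads for 100% of the values, within 1 ppm. Replicates of a group differed by more than counting noise (chi-square per degree of freedom from 3.72 to 19.0), and none was a repeated library. A limma p-value sets a difference against the spread between these pooled samples, moderated across genes. For the ratios to Csf1r that spread was pooled fully across genes.

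Normalized values were tested with limma 3.58.1 in R 4.3.3 (trend, robust, pseudocount 1, all 8 libraries), with p adjusted over all 14249 genes. Alternatives were edgeR 4.0.16 (TMM) and DESeq2 1.42.0 on the recovered reads, other filters, pseudocounts of 5 and 0.5, upper quartile scaling, a replicate block, and fits that left out libraries. edgeR found 5058 genes up in EMM and 5252 up in SOM, DESeq2 found 5189 up in EMM and 4982 up in SOM, and limma found 5149 up in EMM and 5129 up in SOM. The text names all 37 members and, from each of 17 lists, at most the 3 genes per direction with the lowest adjusted p, with exceptions said in the text to have been picked later or for another reason. Members and lists were chosen with earlier results of these data known. Of 296 list entries, 293 matched a symbol. Gene positions and exonic lengths come from GENCODE M21 (GRCm38) and promoter windows from RefSeq.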

Additional observations from a re-analysis of the deposited data

Results flagged for a closer look

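Within each group, 4 of 74 sets of 4 values had a library that stood apart from the other 3, by a gap above Dixon's 95% critical value. Chance gives such a gap in about 1 in 20 groups. Lyz2 had 215 normalized counts in SOM replicate 2, above 110 to 120 in the other SOM libraries. Cd83 had 118 in the same library, below 142 to 144 in the others. Coro1a had 449 in SOM replicate 4, below 479 to 484 in the others, and Pf4 had 243 in that library, below 306 to 319. No EMM library stood apart in this way for any member.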

How the results depend on the processing

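For 36 of 37 members the direction and the call of the difference between EMM and SOM were kept in every alternative in which the member was tested, up to 17. Crybb1 was the exception, with log2 differences from 0.42 to 0.95 and adjusted p from 0.0035 to 0.227. Ratios to Csf1r depended more on the settings, since 11 of 36 changed their call in at least 1. With the mean of the C1q chains as the reference, 4 members were higher and 10 lower, in place of 2 and 24, with no share over all genes beside the former. The log2 difference of the ratio of Sall1 to Csf1r was -0.60 with a pseudocount of 5 (limma adjusted p = 0.0275). It was 0.21 with a pseudocount of 1 (limma adjusted p = 0.586). Sall1 had 1.28 to 8.01 normalized counts in SOM libraries, of the size of these pseudocounts, which thus set much of its log2 value there. Same-numbered libraries did not deviate together (r of 0.13, 0.01, 0.04 and -0.02), and with a replicate block 35 members were called higher in EMM and 1 in SOM, 31 and 1 at least 2-fold, while the ratio to Csf1r was higher in 3 and lower in 25. Under that block 8 monocyte and granulocyte markers were called higher in SOM, in place of 4. The filter at 50 gave no value for members that never reached it in 4 libraries. With that filter the median was -1.20 over 5 brain and neuron markers and 1.31 over 5 surface ectoderm markers.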
